A study of Mus musculus with 4 samples.

Results

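The 39 genes described here are interferon-stimulated antiviral genes of the mouse, the set that cells switch on when they sense virus or interferon. They were chosen by gene symbol from a fixed list of 39 names, and their rows were taken from a list of m6A peaks for each genotype, a table of differential peaks and a table of gene levels. All 39 had at least 1 peak in both peak lists, among 14804 genes with a peak in either list. They held 139 of 38697 cKO peaks, 115 of 36507 WT peaks and 36 of 10355 differential peaks. An input level was held for 25 of them, among 7307 genes.

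The cells were bone-marrow-derived macrophages of C57BL/6 mice, raised from marrow in M-CSF, a macrophage growth factor, for 7 days and then kept for 24 hours with MC38, a colon carcinoma line of the mouse. The Mettl3 cKO macrophages carried Mettl3 fl/fl and LysM-cre, and the WT macrophages carried Mettl3 fl/fl without Cre. Both groups therefore have floxed Mettl3 alleles and both saw tumour cells, and an effect of Cre itself and of losing Mettl3 cannot be told apart. In LysM-cre the promoter of lysozyme M drives Cre in macrophages, monocytes and granulocytes. For either genotype there was 1 IP library, of RNA fragments bound by an antibody to m6A, and 1 input library, of the fragments before binding. With 1 library of each kind per genotype there is no replicate spread for any value below, so no test of genotype was possible and every difference compares libraries only.

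Interferon binds its receptors, the kinases JAK1 and TYK2 start a relay to a complex that holds STAT2 and IRF9, and this complex binds interferon-stimulated response elements in promoters and turns on the genes studied here. Their products sense viral RNA and DNA, cut or trap viral RNA, block virus entry or budding, and attach ISG15 or ADP-ribose to proteins. METTL3 catalyses N6-methyladenosine (m6A) formation in messenger RNA, mostly in long internal exons and near stop codons, and m6A marks transcripts for reading proteins that change their decay or translation. Loss of m6A is known to raise interferon signalling in other cells, partly through slower decay of interferon messenger RNA.

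Series-wide facts bear on these values. Reads per library were not analysed here, which leaves the depth unknown. Input levels are FPKM, a fragment count corrected for transcript length and for library size, and were held only for genes with a listed differential peak, so 14 members have none (Ifit1, Ifit3, Mx1, Mx2, Oas2, Oasl2, Usp18, Ddx58, Isg20, Ifi35, Ifi205, Ifi47, Xaf1 and Sp100). Mettl3 had no input value held here, and its lists had 4 cKO and 2 WT peaks with 0 differential peaks, so its deletion was not checked. All 10 macrophage markers had peaks in both lists, and the 8 with a level of at least 1 FPKM summed to 3333 FPKM in the cKO input and 4894 in the WT input, mostly Lyz2, the gene whose promoter drives the Cre. Without Lyz2 the other 7 summed to 1353 FPKM in the cKO input and 1501 in the WT input. None of the 7 T and NK markers had a peak. Of the fibroblast markers 5 of 7 had a level of at least 1 FPKM, all higher in the cKO, and summed to 198 FPKM in the cKO and 110 in the WT, while the epithelial marker Krt19 stood at 10.8 FPKM in the cKO and 7.05 in the WT. What part these cells have in the results was not tested. In bulk RNA, fewer cells of a type and less RNA per cell cannot be told apart.

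The interferon-stimulated response element was looked for in the promoters of the set. RefSeq promoter windows, which run from 250 bases before to 50 bases after each start on build GRCm38.p6, were held for 30 of the 39 members. The core of the interferon-stimulated response element was searched as 2 copies of GAAA with any 2 bases between them or, for the other strand, 2 copies of TTTC spaced likewise. It stood in 14 of the 30 members (46.7%, exact binomial 95% interval 28.3 to 65.7), against 1079 of 27025 genes with such a window (3.99%, 3.76 to 4.23). These windows come from the gene strand, with the core in capitals, and belong to members whose peaks or levels are described further on. A match is a description of the letters, not of a factor bound there.
Isg15, 4:156200877-156200906, minus strand: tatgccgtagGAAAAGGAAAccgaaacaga
Rsad2, 12:26456553-26456582, minus strand: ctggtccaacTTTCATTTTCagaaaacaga
Bst2, 8:71537583-71537612, minus strand: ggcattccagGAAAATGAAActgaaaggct
Ifitm3, 7:141010723-141010752, minus strand: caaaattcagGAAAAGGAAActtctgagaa
Oas1a, 5:120907526-120907555, minus strand: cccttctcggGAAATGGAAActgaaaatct
Eif2ak2, 17:78882535-78882564, minus strand: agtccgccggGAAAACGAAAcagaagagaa
Ifit1, 19:34640775-34640804, plus strand: caggcttcagTTTCACTTTCcagtctcagt
Ifit3, 19:34583363-34583392, plus strand: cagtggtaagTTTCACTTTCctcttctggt

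The core lay 78 bases before the start of Isg15, 120 before that of Rsad2 and 104 before that of Ifit1. Ddx58, Ifih1, Ifi205, Ifitm2, Oas3 and Trim30a also held it. The 39 genes lie on 13 chromosomes, and 17 of them fall into 7 groups of neighbours with gaps of at most 150 kb. These are Rsad2 and Cmpk2 on chromosome 12, Parp14, Dtx3l and Parp9 on chromosome 16, Mx1 and Mx2 on chromosome 16, Ifit2, Ifit3 and Ifit1 on chromosome 19, Oasl2 and Oasl1 on chromosome 5, Oas2, Oas3 and Oas1a on chromosome 5, and Ifitm2 and Ifitm3 on chromosome 7.

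Most interferon-stimulated genes with an input level were somewhat lower in the cKO macrophages. Differences are log2(FPKM + 1), cKO minus WT, in the 24 members with a mean of at least 1 FPKM. Of these 24 genes 20 were lower and 4 higher in the cKO, 83.3% lower, against 54.2% of 6079 genes. The median difference was -0.26 for the members (quartiles -0.42 and -0.04, range -0.63 to 0.09) and -0.02 for all genes. On the FPKM + 1 scale the WT input exceeded the cKO input by at least 25% in 10 members (41.7%, against 7.24% of all genes), and the cKO exceeded the WT by as much in 0 members (against 6.56%). At 1.5-fold 2 members were lower (8.33%, against 1.66%) and 0 higher (against 1.46%). The authors' deposited table called 0 of the 25 members with a level different (0.616% of all 7307 genes), with a q-value of 1 for each and a lowest p-value of 0.19, for Ifi44.

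**Figure D1:**
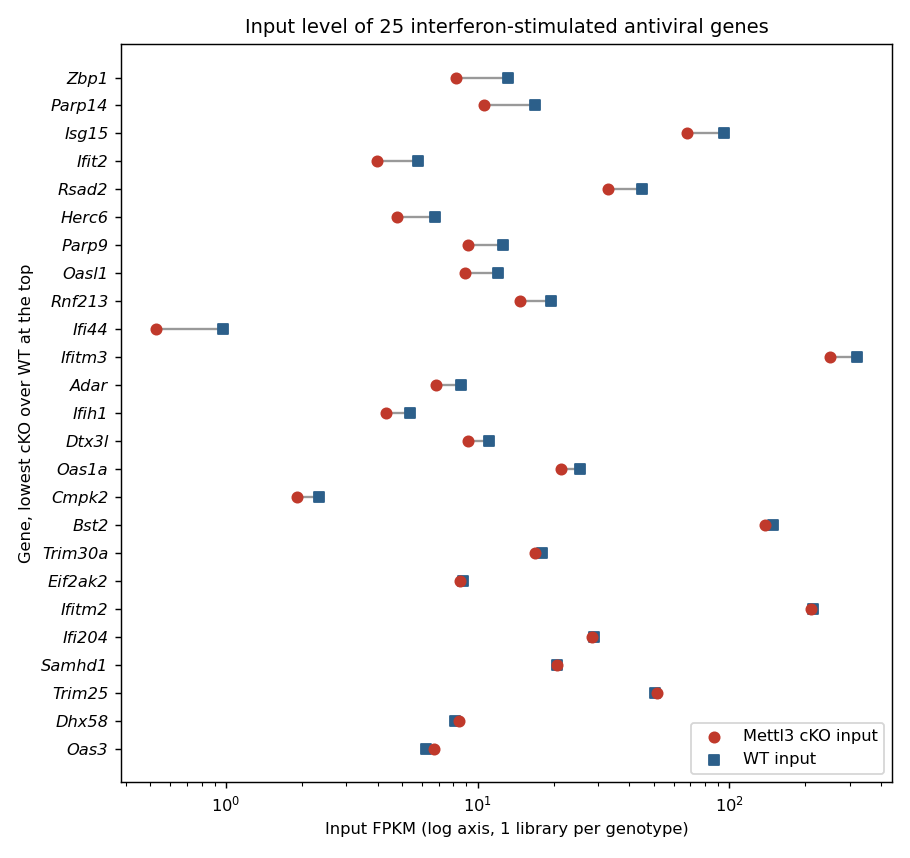
Input level of each of the 25 members with a value, in FPKM on a log axis, 1 library per genotype; red circles are the Mettl3 cKO input, blue squares the WT input and the grey line joins them. The WT square lies to the right of the cKO circle for 21 of the 25 genes, and the levels run from under 1 FPKM for Ifi44 to 251 FPKM in the cKO and 322 FPKM in the WT for Ifitm3.

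Among the sensors, Zbp1, which binds Z-form RNA and DNA and triggers cell death, showed the largest difference of all members. It had 8.17 FPKM in the cKO input and 13.2 in the WT input, a log2 difference of -0.63. Ifih1, which encodes the long double-stranded RNA sensor MDA5, had 4.32 FPKM in the cKO and 5.39 in the WT (-0.26). Ifi204, a DNA-binding sensor gene, was nearly level, with 28.5 FPKM in the cKO and 29.0 in the WT (-0.02). Dhx58, encoding LGP2, a regulator of MDA5, was slightly higher, with 8.46 FPKM in the cKO and 8.10 in the WT (0.06). Over these 4 sensors the median was -0.14.

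The effectors that act on RNA had a median of -0.24, with 5 of 7 lower. Ifit2, whose product binds viral RNA and blocks its translation, had 3.96 FPKM in the cKO and 5.79 in the WT (-0.45). Oasl1, an OAS-like protein that restrains translation of Irf7, had 8.91 FPKM in the cKO and 12.1 in the WT (-0.40). Adar, which encodes an RNA-editing enzyme, had 6.84 FPKM in the cKO and 8.58 in the WT (-0.29). Oas1a, which makes the 2-5A signal that activates RNase L, had 21.5 FPKM in the cKO and 25.6 in the WT (-0.24). Differences were close to 0 for the other 3 genes of this group. Eif2ak2, the kinase PKR that shuts off translation, had 8.48 FPKM in the cKO and 8.77 in the WT (-0.04). Samhd1, a dNTP-degrading enzyme, had 20.7 FPKM in the cKO and 20.6 in the WT (0.01). Oas3 had the highest difference of all members, 6.70 FPKM in the cKO and 6.25 in the WT (0.09).

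All 5 measured membrane and nucleotide effectors were lower in the cKO (median -0.20). Rsad2, the enzyme viperin that makes the chain terminator ddhCTP, had 33.0 FPKM in the cKO and 44.8 in the WT (-0.43). Its neighbour Cmpk2, a nucleotide kinase of mitochondria, had 1.91 FPKM in the cKO and 2.34 in the WT (-0.20). Ifitm3, which blocks virus entry in endosomes, was the most abundant member, with 251 FPKM in the cKO and 322 in the WT (-0.36). Its neighbour Ifitm2 hardly differed, at 211 FPKM in the cKO and 215 in the WT (-0.03), although near-identical copies in this family, as in the Ifit, Ifi200, Oas, Oasl, Mx and Trim30 families, make the sharing of reads uncertain. Bst2, tetherin, which holds budding virions at the surface, had 138 FPKM in the cKO and 150 in the WT (-0.12). Ifi44, of a GTP-binding family, was under the minimum level, with 0.528 FPKM in the cKO and 0.976 in the WT.

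Genes of the ISG15 system, ubiquitin ligases and PARPs had the lowest median, -0.40, with 7 of 8 lower. Parp14, a mono-ADP-ribosyltransferase, had 10.6 FPKM in the cKO and 16.8 in the WT (-0.62). Isg15, the ubiquitin-like modifier itself, had 68.1 FPKM in the cKO and 95.0 in the WT (-0.47). Herc6, the mouse ligase that attaches ISG15, had 4.78 FPKM in the cKO and 6.76 in the WT (-0.42). Parp9 and Dtx3l, which act as a complex, were both lower. Their genes overlap on opposite strands, and whether counting kept the strands apart is not given in the sources used here. Parp9 had 9.19 FPKM in the cKO and 12.6 in the WT (-0.42), and Dtx3l had 9.12 in the cKO and 11.0 in the WT (-0.25). Rnf213, a giant ubiquitin ligase, had 14.7 FPKM in the cKO and 19.6 in the WT (-0.39). Both TRIM ligases were close to level. Trim30a had 16.8 FPKM in the cKO and 17.9 in the WT (-0.09), and Trim25, which ubiquitinates RIG-I, had 51.7 in the cKO and 50.5 in the WT (0.03).

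Members carried more listed peaks in the cKO than in the WT. The mean was 3.56 peaks per gene in the cKO list and 2.95 in the WT list, against 2.61 in the cKO list and 2.47 in the WT list over all 14804 genes. More peaks in the cKO were listed for 18 of 39 members (46.2%, against 35.5% of all genes), 11 were equal and 10 had fewer. The exonic length, counted for each peak on the transcript listed for it, was 62.5 kb in the cKO and 67.4 kb in the WT. Over all genes it was 17065 kb in the cKO and 17093 kb in the WT. Overlapping peaks could be placed on unlike transcripts, and those of Parp9 counted 297 nt in the cKO and 1874 nt in the WT. What part this has in the summed lengths was not tested. A member peak had a median exonic length of 300 nt in the cKO and 304 nt in the WT, and the median log2 IP over input of member peaks was 1.04 in the cKO and 1.04 in the WT. Peaks were called separately in each genotype from 1 IP and 1 input library, so a peak count moves with how a signal was cut into peaks.

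**Figure D2:**
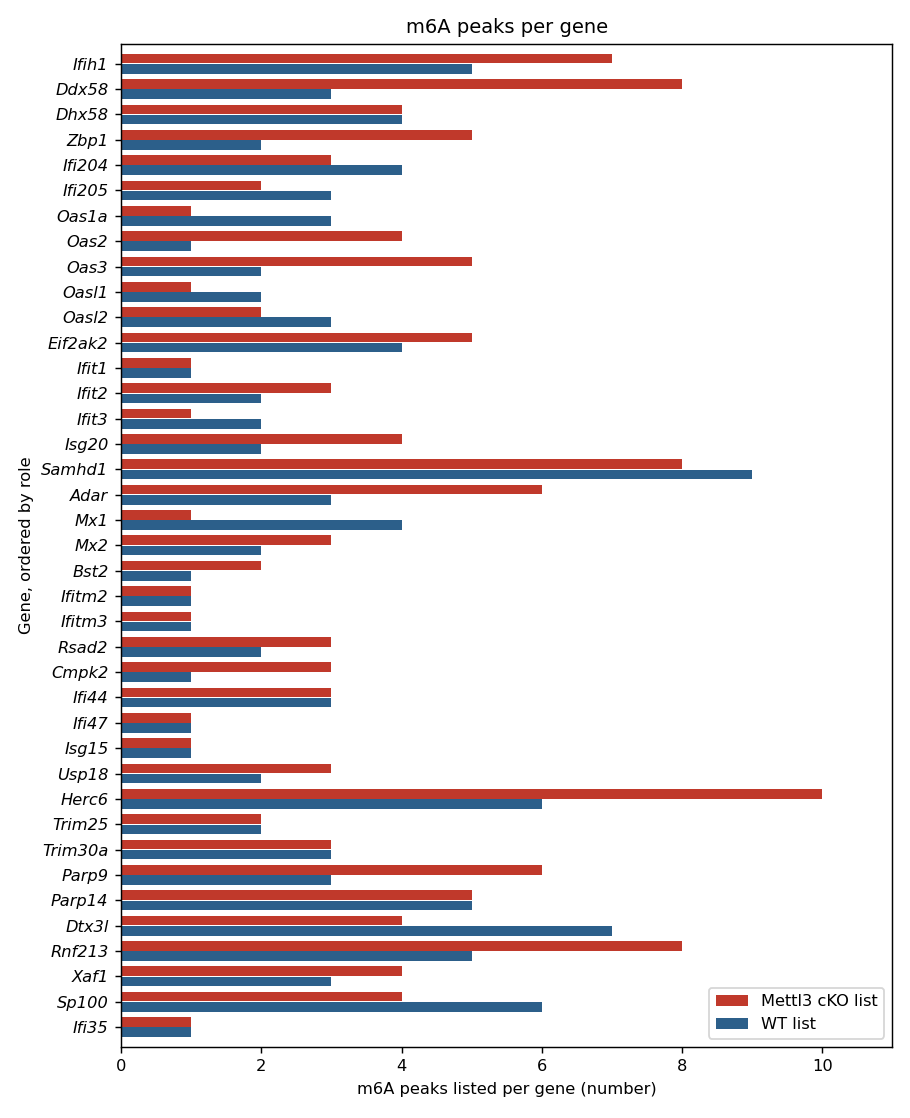
Number of m6A peaks listed for each of the 39 members, ordered by role; red bars are the Mettl3 cKO list and blue bars the WT list. Herc6 has the most cKO peaks (10, against 6 in the WT) and Samhd1 the most WT peaks (8 in the cKO, against 9 in the WT).

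Ddx58, the gene of the RNA sensor RIG-I, showed the widest gap in peak number, with 8 cKO and 3 WT peaks. Its strongest peak was alike at 1.36 in the cKO and 1.4 in the WT (log2 IP over input), and 6 of the further cKO peaks lay in coding exons at 0.54 to 0.93. Mx1, a gene of the dynamin-like GTPase family, went the other way with 1 cKO peak and 4 WT peaks. There a single cKO peak of 948 nt at the transcript's 3' end reached 1.90, and 2 shorter WT peaks inside it had 1.14 and 1.69. Oas1a had 1 cKO and 3 WT peaks, Dtx3l had 4 cKO and 7 WT peaks, and Zbp1 had 5 cKO and 2 WT peaks. Isg15, Ifit1, Ifitm2, Ifitm3, Ifi35 and Ifi47 had 1 peak in each list.

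Members with no input level could be followed through their peaks. None of these 14 has a listed differential peak by construction, since levels were held only for genes with one. Among them the RNA-binding effector genes Ifit1 and Ifit3 carried peaks over most of the transcript. The strongest Ifit1 peak had 1.92 in the cKO and 1.87 in the WT, and that of Ifit3 had 2.88 in the cKO and 3.04 in the WT (log2 IP over input). Oas2, a 2-5A synthetase, had 4 cKO peaks and 1 WT peak, the strongest at 2.05 in the cKO and 1.34 in the WT. Isg20, an exonuclease that degrades RNA, had 4 cKO and 2 WT peaks. At its matched 3' UTR peak the cKO list had 1.69 and the WT list 1.04, while its strongest WT peak, 1.11, was coding. For Mx2 the strongest cKO peak, 2.17, lay in the 3' UTR and had no WT counterpart. Its strongest WT peak, 1.53, was coding, and a cKO peak that overlaps it in part had 1.18. Lower in the cKO was the strongest peak of the GTPase gene Ifi47 (1.42 in the cKO, 2.15 in the WT). This peak began upstream of the listed gene start and covered 56 nt of the Ifi47 transcript. The strongest Oasl2 peak was also lower (1.44 in the cKO, 1.58 in the WT). In the DNA sensor family gene Ifi205 the strongest peaks lay apart, at 0.73 in the 5' UTR in the cKO and 1.32 in the 3' UTR in the WT. The strongest WT peak of the nuclear body gene Sp100, at 2.20, had no cKO counterpart. The strongest cKO peak of Sp100 had 1.63, where the WT list had 1.56. Usp18, which removes ISG15 and dampens receptor signalling, had 1.36 in the cKO and 1.42 in the WT at its matched 3' UTR peak. An intronic cKO peak of Usp18 with no WT counterpart had 1.43. Ifi35 had 1.32 in the cKO and 1.23 in the WT.

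By region, 3' UTRs held 67 of 139 cKO member peaks (48.2%, exact binomial 95% interval 39.7 to 56.8) and 63 of 115 WT member peaks (54.8%, 45.2 to 64.1). Over all peaks the shares were 55.7% in the cKO and 56.2% in the WT. Other exonic positions held 29.5% of the cKO and 28.7% of the WT member peaks, and 5' UTRs held 10.8% of the cKO and 9.57% of the WT member peaks. Introns held 16 cKO member peaks (11.5%, 6.72 to 18.0) and 8 WT member peaks (6.96%, 3.05 to 13.2), against 5.15% of all cKO and 4.58% of all WT peaks. Herc6 alone had 5 intronic cKO peaks and 3 intronic WT peaks. All these intervals cover counting error only, and those of the genotypes overlap.

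Most member peaks had a counterpart in the other genotype. Of the cKO member peaks 100 of 139 overlapped a WT peak by at least 1 bp on the same strand (71.9%, 63.7 to 79.2), and of the WT member peaks 88 of 115 overlapped a cKO peak (76.5%, 67.7 to 83.9). Over all peaks the shares were 71.3% of the cKO and 73.2% of the WT peaks. The 39 cKO member peaks with no counterpart were weak (median log2 IP over input 0.83, against 1.16 for those with one), and 13 of them were intronic. The 27 WT member peaks with no counterpart had a median of 0.77, against 1.17 for those with one, and 5 were intronic. One of these stood out by strength, the peak at the 3' end of Oas1a with 3.99 in the WT list.

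Peaks that matched singly in both lists numbered 60 among members, and their median difference in log2 IP over input was 0.05, cKO minus WT, against 0.04 over all 19387 such pairs. Of the 60, 26 were lower and 34 higher in the cKO. With a mean log2 of at least 2 over both genotypes, 5 of 6 were lower, with the exception of Xaf1, against 68.1% lower over all pairs of that strength. Between 1 and 2, 12 of 35 were lower (34.3%, against 37.6% over all pairs), and under 1, 9 of 19 were lower (47.4%, against 39.5%). The strongest peak of a gene in each list, wherever it lay, was lower in the cKO in 22 of 39 members and higher in 17. Of 13023 genes 49.5% were lower in this way. The peaks compared so can lie at different sites of a gene.

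Xaf1 and Cmpk2 were among the 3 members with the strongest peak in either genotype. Xaf1, which encodes a binding partner of the apoptosis inhibitor XIAP, led the cKO list with 5.65 at the 3' end of its transcript (11:72313370-72313733), where the WT list had 3.81. A second cKO peak just upstream had 3.90 and no WT counterpart. Eif2ak2 followed in the cKO with 3.34, against 3.41 in the WT, and Cmpk2 with 2.99, against 3.55 in the WT. In the WT list Oas1a led with 3.99, followed by Xaf1 with 3.81 and Cmpk2 with 3.55. The strongest cKO peak of Oas1a had 0.66 and did not overlap that WT peak. The Xaf1 and Oas1a peaks had weak listed p-values for their size, 6.67e-05 for Xaf1 in the cKO list and 0.000148 for Oas1a in the WT list, in the authors' deposited lists. No Xaf1 peak was listed as differential, and the Oas1a peak had an adjusted p of 0.0992 by the authors' deposited table.

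**Figure D3:**
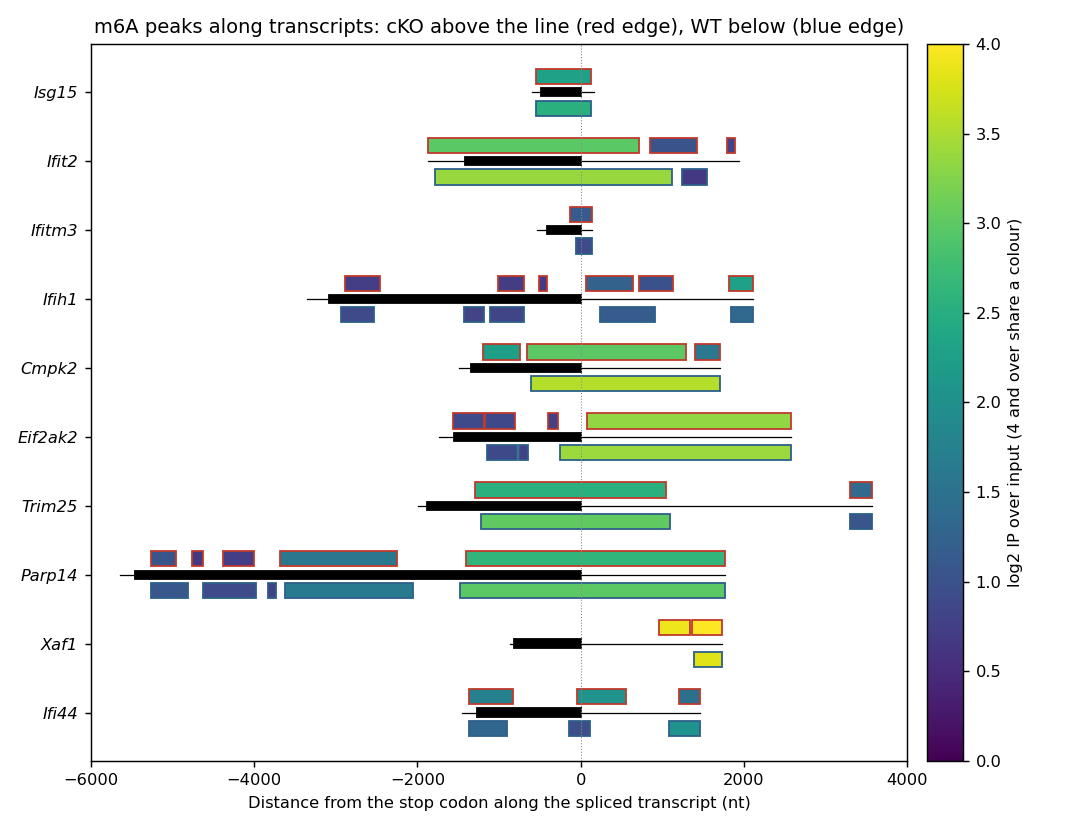
Exonic m6A peaks of 10 members along the spliced transcript that holds most of the gene's peaks, in nt from the stop codon; thick black bars are coding sequence and thin lines UTRs, boxes above the line are Mettl3 cKO peaks, boxes below are WT peaks, and the fill gives log2 IP over input (peaks in introns or on other transcripts are left out). Isg15 has 1 peak over nearly the whole transcript in each genotype, with 2.29 in the cKO and 2.54 in the WT, while the Xaf1 3' end peak reaches 5.65 in the cKO and 3.81 in the WT.

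Between genotypes the authors' deposited table of differential peaks lists only peaks with p below 0.05. It held 36 peaks in 25 members (64.1% of members, against 49.9% of 14804 genes). Members also had more listed peaks per gene than all genes (3.56 against 2.61 in the cKO list, 2.95 against 2.47 in the WT list). The shares of genes given here are not corrected for this. Of the 36 peaks 21 were lower and 15 higher in the cKO (58.3% lower, against 51.1% of 10355). Lower peaks fell in 16 members (41.0%, against 28.9% of genes) and higher ones in 13 (33.3%, against 28.3%). At an adjusted p below 0.05, 16 members had a differential peak (41.0%, against 30.8%), 11 of them a lower one (28.2%, against 18.0%) and 6 a higher one (15.4%, against 15.3%). Of the 19 peaks at that threshold 13 were lower (68.4%, against 54.3% of 5519). These p-values compare the reads of 2 library pairs and not the conditions.

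The direction followed the strength of the peak. All 9 member peaks with a mean log2 IP over input of at least 2 were lower in the cKO, against 83.4% of all 2516 such peaks. Of 17 peaks between 1 and 2, 7 were lower (41.2%, against 38.3%), and of 10 weaker ones 5 were lower (50.0%, against 43.9%). The whole table of differential peaks thus splits by strength in the same way.

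**Figure D4:**
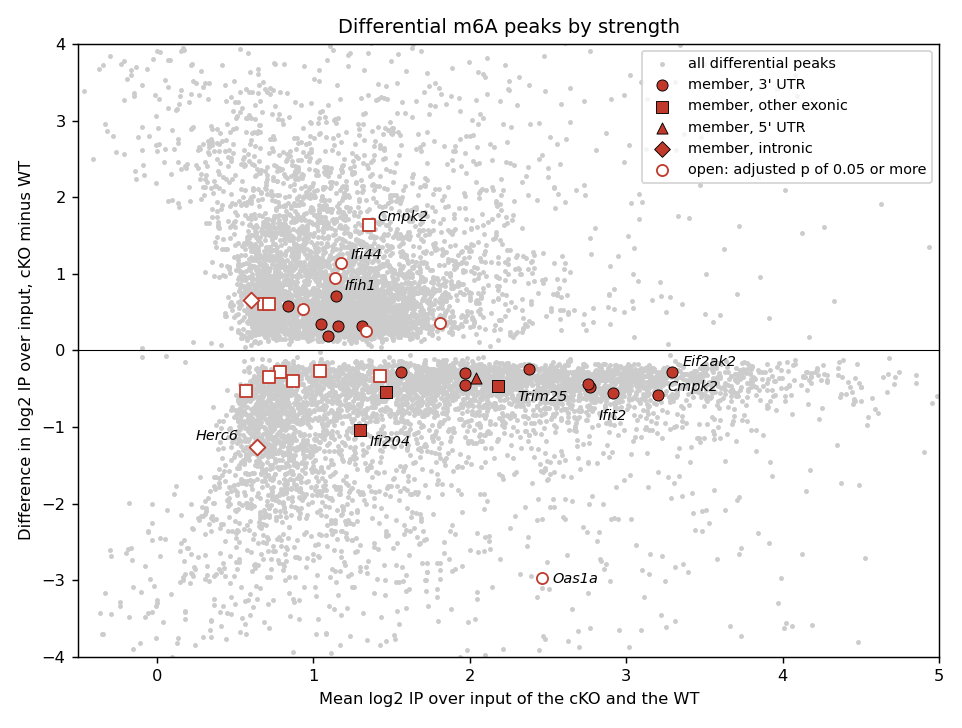
Difference in log2 IP over input (cKO minus WT) against the mean of both genotypes for the differential peaks of the authors' deposited table; grey points are all 10355 peaks, of which 379 lie outside the axes, and red symbols are the 36 member peaks, filled where the adjusted p is below 0.05 and open otherwise. All 9 member peaks at a mean of 2 or more lie below 0, and Oas1a lies lowest at -2.97.

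In the authors' deposited table the lower peaks at an adjusted p under 0.05 covered effectors, ligases and a sensor. The peak over the end of the Trim25 coding sequence and the start of its 3' UTR stood at 2.53 in the cKO and 3.00 in the WT on the log2 IP over input scale (difference -0.47, adjusted p 2.66e-41 by that table of the authors). Rnf213 had 3 such peaks in the table, of which a coding one had 1.95 in the cKO and 2.41 in the WT (-0.46, adjusted p 6.54e-15). Parp14 had 2.54 in the cKO and 2.97 in the WT over its 3' end (-0.44, adjusted p 2.31e-12 by that table of the authors). Trim25 differed in its peak while its input level was nearly the same, whereas Parp14 was lower in both.

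Ifit2 had 2.64 in the cKO and 3.19 in the WT (-0.55), with an adjusted p of 1.87e-06 in the authors' deposited table. The viperin gene Rsad2 had 1.42 in the cKO and 1.70 in the WT (-0.28, adjusted p 7.40e-05 there), and its neighbour Cmpk2 had 2.91 in the cKO and 3.5 in the WT (-0.58, adjusted p 0.00154). Isg15 had 2.26 in the cKO and 2.50 in the WT (-0.25, adjusted p 0.000600 by that table of the authors). These 4 genes were also lower in the input. Oasl1 had 1.74 in the cKO and 2.20 in the WT (-0.46), Adar had 1.86 in the cKO and 2.22 in the WT in its 5' part (-0.35), and Eif2ak2 had 3.15 in the cKO and 3.43 in the WT (-0.28), with adjusted p-values of 0.00175, 0.00239 and 0.00604 in the authors' deposited table. At the matched Eif2ak2 peak of the lists the gap was smaller, 3.34 (cKO) against 3.41 (WT). The remaining Rnf213 peaks had differences of -0.54 and -0.29. The largest difference of this kind was in a coding exon of Ifi204, with 0.78 in the cKO and 1.82 in the WT (-1.04, adjusted p 0.0192 by that table of the authors), where the cKO list had this interval at 0.86 and the WT list had a peak that overlaps it in part at 0.74. After Ifi204 came the Cmpk2 peak above. Without the Ifi204 peak, a count chosen after seeing the data, 12 of 18 member peaks at that threshold were lower.

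Higher peaks at that threshold were weaker and sat mostly at the ends of the transcripts listed for them. Ifitm3 had 1.22 in the cKO and 0.87 in the WT (0.35, adjusted p 9.10e-12 by the authors' deposited table), and Ifitm2 had 1.19 in the cKO and 1.0 in the WT (0.19, adjusted p 0.0315). Bst2 had 1.47 in the cKO and 1.16 in the WT (0.32, adjusted p 0.000418 by that table of the authors). These 3 genes of short membrane proteins had the highest input levels of all measured members. Samhd1 had 1.13 in the cKO and 0.55 in the WT (0.57), and Ifih1 had 1.5 in the cKO and 0.79 in the WT (0.72), with adjusted p-values of 4.93e-06 and 0.0228 in the same table. Trim25 had both directions on 1 transcript: its second peak, at the far 3' end, had 1.32 in the cKO and 1.0 in the WT (0.32, adjusted p 0.0291 by the authors' deposited table).

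The other 17 differential peaks had an adjusted p above 0.05, per the authors' deposited table. The widest difference among all 36 was the Oas1a 3' end peak, with 0.97 in the cKO and 3.95 in the WT (-2.97, adjusted p 0.0992). Higher ones were a coding peak of Cmpk2 (2.17 in the cKO, 0.54 in the WT), 3' UTR peaks of Ifi44 (1.75 in the cKO, 0.61 in the WT), Herc6 (1.61 in the cKO, 0.67 in the WT), Parp9 (1.20 in the cKO, 0.67 in the WT) and Zbp1 (1.99 in the cKO, 1.63 in the WT), 1 peak each of Dhx58 and Eif2ak2 with a difference of 0.60, and 2 peaks of Samhd1 with differences of 0.66 and 0.25. Lower ones were an intronic peak of Herc6 (0.01 in the cKO, 1.27 in the WT), coding peaks of Dtx3l (1.26 in the cKO, 1.59 in the WT) and Oas3 (0.67 in the cKO, 1.07 in the WT), and peaks of Trim30a, Parp14 and Rnf213 with differences between -0.53 and -0.26. Cmpk2, Eif2ak2 and Herc6 thus had peaks of both directions.

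GGACT stood in most of the lower member peaks and in few of the higher ones, and these peaks also differed in length. This sequence, the most frequent form of the m6A consensus, was searched within each peak, only in the exonic bases of the transcript listed for it. It was found in 12 of 13 member peaks that were lower at an adjusted p below 0.05 (92.3%, against 62.0% of all lower peaks at that threshold) and in 1 of 6 that were higher (16.7%, against 25.1% of all higher ones). Length differs with direction: the lower member peaks had a median of 1846 exonic nt and the higher ones 250 nt. Per kilobase GGACT stood 1.34 times in the lower and 0.976 times in the higher member peaks. Within 50 nt of the transcript's 3' end ended 5 of the 6 higher member peaks (83.3%, against 58.7% of all higher peaks) and 5 of the 13 lower ones (38.5%, against 36.0%). The end is that of the transcript listed for the peak, and for Samhd1 both lists had peaks of the gene further downstream. Over all peaks at that threshold of 100 to 300 exonic nt, GGACT stood in 16.4% of the lower and 16.2% of the higher ones. Among longer peaks of up to 1000 nt it stood in 57.0% of the lower and 34.7% of the higher ones, and above that length in 87.8% of the lower and 71.2% of the higher ones. In these 3 length classes the members had 1, 2 and 10 lower peaks and 4, 1 and 0 higher ones. The higher Samhd1 peak, with 74 nt on the transcript listed for it, fell below these classes. With every listed differential peak of members taken, the middle class held GGACT in 4 of 7 lower peaks and 3 of 5 higher ones. For the peak with the lowest adjusted p in each gene, the GGACT nearest its middle is given with 10 bases on each side. The bases come from GENCODE M21 transcripts on mm10, with the motif in capitals. Shown are 8 lower peaks and Bst2, the higher peak in which the motif was found.
Trim25, coding, 11:89016636-89016660, plus strand: agttcaaggtGGACTtcaccgaagc
Rnf213, coding, 11:119441642-119441666, plus strand: agagactggtGGACTccgtctctgt
Parp14, coding, 16:35840781-35840805, minus strand: atttcacggtGGACTtgagcacaaa
Ifit2, coding, 19:34574407-34574431, plus strand: agaggggagtGGACTctgcaaacca
Isg15, 3' UTR, 4:156199513-156199537, minus strand: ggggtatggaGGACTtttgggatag
Rsad2, 3' UTR, 12:26445304-26445328, minus strand: ggctatctacGGACTgttgttatta
Cmpk2, 3' UTR, 12:26478485-26478509, plus strand: cgataactaaGGACTatcacagagc
Eif2ak2, 3' UTR, 17:78853495-78853519, minus strand: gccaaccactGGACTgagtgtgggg
Bst2, 3' UTR, 8:71534350-71534374, minus strand: cagaactttaGGACTggggagtggg

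The Eif2ak2 peak held 7 such motifs, the Cmpk2 peak 5, the Rnf213 peak 4 and the Isg15 and Trim25 peaks 1 each. The differential peaks of Ifitm3, Ifitm2 and Ifih1 and the strong Xaf1 peak held none. The Samhd1 peak with the lowest adjusted p held none over the 74 nt of the transcript listed for it. A WT-list peak inside the same interval, placed on another Samhd1 transcript, held 1. Over all member peaks GGACT stood in 35.0% of the cKO and 36.4% of the WT peaks, against 34.1% of all cKO and 35.2% of all WT peaks. Stop codons lay inside 16.3% of the cKO and 19.6% of the WT member peaks, against 18.4% of all cKO and 19.7% of all WT peaks.

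Peak and input differences were set side by side for the 36 differential peaks. In 19 both were lower in the cKO, in 10 the peak was higher and the gene lower, in 2 the peak was lower and the gene higher, and in 5 both were higher. At an adjusted p below 0.05 the counts were 12, 4, 1 and 2. Both measures use the same input libraries, so no relation between them is given.

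The genes around the interferon response were measured from lists chosen by pathway. Of 8 receptor and relay genes 6 had a level, 3 lower and 3 higher (cKO minus WT median -0.03, 0 past 1.5-fold, all genes -0.02). Stat2, a transcription factor of the relay, had 11.1 FPKM in the cKO and 13.3 in the WT (-0.24), and Jak1, a kinase at the receptors, had 37.6 in the cKO and 39.9 in the WT (-0.08). Of the 4 receptor chains with a level 3 were higher, with Ifnar1 at 37.8 FPKM in the cKO and 32.1 in the WT (0.23), Ifngr2 at 50.1 in the cKO and 45.2 in the WT (0.15) and Ifnar2 at 63.1 in the cKO and 62.1 in the WT (0.02), while Ifngr1 had 15.2 in the cKO and 16.2 in the WT (-0.08). Differential peaks of the list numbered 9, 8 lower and 1 higher in the authors' deposited table, 5 and 1 of them at an adjusted p below 0.05 (of all 10355 differential peaks 51.1% were lower, and 54.3% at that threshold, which serves for each list here). The 3' UTR peak of Ifnar2 had 3.47 in the cKO and 4.07 in the WT (-0.61, adjusted p 1.59e-25 by that table of the authors), and those of Ifnar1, Stat2, Ifngr1 and Jak1 differed by -0.19, -0.31, -0.26 and -0.48. A 3' UTR peak of Ifngr2 was higher by 0.26, and further listed peaks differed by -0.16 and -0.25 in Ifngr2 and by -0.39 in Jak1.

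Of 15 genes that sense danger upstream of interferon 9 had a level of at least 1 FPKM, 6 lower and 3 higher (median -0.14, 0 past 1.5-fold). The endotoxin receptor gene Tlr4 had 10.2 FPKM in the cKO and 13.0 in the WT (-0.32), and Tlr7, a receptor of single-stranded RNA, had 14.2 in the cKO and 16.8 in the WT (-0.23). Traf3, an adaptor gene, had 5.57 FPKM in the cKO and 6.68 in the WT (-0.22). Irf7, itself an interferon-stimulated gene and the master factor of interferon genes, was higher with 52.9 FPKM in the cKO and 42.7 in the WT (0.30). In the authors' deposited table they had 13 differential peaks, of which 9 were lower and 4 higher, 6 and 3 at an adjusted p below 0.05. The lowest adjusted p was in Traf6, a ubiquitin ligase of Toll-like receptor signalling, with 3.43 in the cKO and 3.90 in the WT (-0.47, adjusted p 1.63e-17 by that table of the authors), and Ticam1, Tlr7, Ikbke, Tlr4, Irf3, Tlr3 and Traf3 had peaks that differed by -0.46, -0.33, -0.31, -0.23, -0.85, -0.70 and -0.28. Traf6 had further 3' UTR peaks that were higher by 1.07 and 0.43, Irf7 had one higher by 0.40 and a coding one that differed by -0.26, and Tbk1 had one higher by 0.39.

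Of 10 genes that brake the response 7 had a level, 5 lower and 2 higher (median -0.11, 0 past 1.5-fold). Ptpn6, the phosphatase SHP-1, had 16.4 FPKM in the cKO and 22.7 in the WT (-0.45), Ptpn11 had 12 in the cKO and 14.4 in the WT (-0.24), and Pias1 had 4.94 in the cKO and 4.42 in the WT (0.13). Socs3, an inhibitor of JAK kinases, had 161 FPKM in the cKO and 175 in the WT (-0.12). Its 3' UTR peak had 2.16 in the cKO and 2.44 in the WT (-0.28, adjusted p 3.74e-32 by the authors' deposited table). Of the 11 differential peaks on this list 5 were lower and 6 higher in that table, 4 and 1 at an adjusted p below 0.05. The other lower ones were 2 of Ptpn11 (-0.33 and -0.35), Pias1 (-0.60) and Nlrc3 (-0.51), and the higher ones were in Ptpn6 (0.34), Ptpn11 (0.44), Ptpn2 (1.71 and 2.60) and Cyld (1.22, intronic, and 1.12). Among the higher ones only the Ptpn6 peak was below that threshold, and among the lower ones all but the Nlrc3 peak were.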

How the data were processed

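RNA of 4 libraries was analysed: IP and input of Mettl3 cKO and of WT macrophages, 1 each. Titles and genotypes in the labels give the groups, and nothing says whether cells of several mice were pooled. Fragments of poly(A) RNA were bound by an antibody to m6A, and libraries keep strand through dUTP, per the labels' protocols. The submitters' processing notes name build mm10 and, with no role, edgeR, StringTie, HISAT2, fastp, ChIPseeker and HOMER. Which program called peaks, how IP was scaled to input and whether counting used strand is not given in the sources used here.

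The authors deposited a peak list per genotype with log2 IP over input, p-value and adjusted p-value, a table of differential peaks (p below 0.05) with log2 values of both genotypes and their difference, and a gene table with FPKM per input library and a fold ratio, per the file headers. The cKO column of the differential table followed the cKO list at 1444 identical positions (median difference -0.05) and the WT column followed the WT list at 1619 (-0.04).

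Input differences were log2(FPKM + 1), cKO minus WT, for genes with a mean of at least 1 FPKM, called at 1.5-fold. Peak overlap required 1 bp on the same strand, and pairs were matched where each peak overlapped a single peak of the other list. Peaks were placed on the transcript named in their row with GENCODE M21 exons (mm10). Promoters came from RefSeq (GRCm38.p6). Coordinates are 1-based. Shares have exact binomial 95% intervals, and no test was computed because each group has 1 sample. The overlap and counting steps were tested on simulated data. Python 3.11.15, pandas 2.3.3, numpy 2.4.6, scipy 1.17.1 and matplotlib 3.10.9 were used.

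The members and lists were chosen with earlier results of these data known, and 1 gene of the receptor and relay list is not reported here. The text gives levels for every member with a mean of at least 1 FPKM, peak values for members with a differential peak and for the 3 with the strongest peak in each list, and, from each pathway list, up to 4 genes by input difference and those with a differential peak. Lists of plasmacytoid dendritic, dendritic and neutrophil markers had 1 gene each with a level (Tcf4, Clec9a and S100a8). Tcf4 was under the minimum level with 0.936 FPKM in the cKO and 0.942 in the WT, Clec9a had 1.29 in the cKO and 1.53 in the WT, and S100a8 had 13.7 in the cKO and 12.3 in the WT.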

Additional observations from a re-analysis of the deposited data

How the results depend on the processing

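No paired analysis was possible because each genotype has 1 library of each kind, so no library could be left out either. The members' median input difference lay between -0.30 (pseudocount 0.1) and -0.19 (pseudocount 5), and 20 members remained lower after centring on all genes, a count added after seeing the data, as was 21 without the filter on low values. The count of members lower in the cKO input was 10 where the WT exceeded the cKO by at least 25% and 0 at 2-fold, and 0 were higher at either limit. At a log2 IP over input of at least 1 the members had 72 cKO and 63 WT peaks. Requiring 50% of both peaks left 43.9% of the cKO and 53.0% of the WT member peaks overlapping. The differential peaks came to 13 lower and 6 higher at an adjusted p below 0.05, and to 3 lower and 2 higher at an absolute difference of at least 1. Fewer calls follow from each stricter limit by construction. The median of matched peaks was 0.02 at 50% overlap and 0.01 after centring. No result changed sign. Depth per library is unknown and limits every value in a way that cannot be stated.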

Other observations

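Relatives of the interferon-stimulated genes, looked up after the members' values were seen, did not all lean the same way. Ifi27l2a, a small interferon-induced mitochondrial protein gene, had 55.8 FPKM in the cKO input and 30.4 in the WT input, a log2 difference of 0.86, above that of every measured member. The authors' deposited table gave a peak 0.67 higher in the cKO (adjusted p 9.31e-05). Parp12, an antiviral mono-ADP-ribosyltransferase, had 8.87 FPKM in the cKO and 12.6 in the WT (-0.46), with a peak higher in the cKO by 0.72 (adjusted p 0.0199 by the authors' deposited table). Parp10 of the same family had 13.4 FPKM in the cKO and 16.7 in the WT (-0.29).

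Of 6 relatives looked up in the Ifi200 family 3 had a differential peak (Ifi203, Ifi209 and Ifi211) and 3 had none (Ifi202b, Ifi207 and Mndal). Ifi211 had 38.9 FPKM in the cKO and 40.5 in the WT, and its peak differed by -1.15, cKO minus WT (adjusted p 1.81e-25 by the authors' deposited table). Ifi203 had 4.74 FPKM in the cKO and 4.29 in the WT, and the lower in p of its 2 listed peaks differed by -3.09 (adjusted p 2.19e-05 in that table). Ifi209 went the other way, with 2.34 FPKM in the cKO and 2.30 in the WT and a peak higher by 2.35 (adjusted p 0.05496 by the authors' deposited table). Oas1b, a copy of Oas1a in the same cluster, had a peak higher by 1.87 (adjusted p 0.00251 by the authors' deposited table), the opposite direction to that of Oas1a. Near-identical copies make the assignment of reads within these families uncertain, and its part in these values was not tested.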
